A study of Mus musculus with 22 samples.

Results

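Livers of mice labelled Trim24-/- Rara+/-, with 1 of their 2 Rara alleles lost, were compared with livers of mice labelled Trim24-/-, which kept both, at 5 weeks of age. The comparison rests on 8 of the 22 arrays of the series, 4 Trim24-/- Rara+/- and 4 Trim24-/- animals chosen by their titles, with 1 array per liver. By label all 8 animals lack Trim24 and the groups differ in the Rara allele alone. Genotypes are named as labelled throughout, and the array signals of both targeted genes did not bear them out, as given below. A further 4 wild-type (WT) livers of the same age lent their spread to the fit and served as a reference level. Per the labels and the series' design text, Trim24 was inactivated by gene disruption, mice heterozygous for both genes on a hybrid C57BL/6 and 129/Sv background were crossed with each other, and the 3 genotypes are offspring of that cross. No Cre driver or transgene is named, so the labels confine neither loss to a cell type. Rara+/- animals with intact Trim24 were not analysed here, so an effect of the Rara allele that needs the absence of Trim24 and one that does not cannot be told apart. Animals go by their label numbers, which are 1, 6, 8 and 37 for Trim24-/-, 54, 66, 73 and 82 for Trim24-/- Rara+/-, and 2, 44, 45 and 90 for WT. Values of single animals are given in that order. The labels do not say whether the animals of a group were littermates, and p-values measure the spread between these animals.

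The Rara product, retinoic acid receptor alpha, sits on DNA as a nuclear receptor with a retinoid X receptor partner and switches its target genes when it binds retinoic acid. Trim24 is a co-regulator that binds such receptors, and in mouse liver it is known to restrain retinoic acid signalling and tumour formation. Interferons act through cell-surface receptors and JAK kinases on transcription factors such as Stat2 and Irf9. These switch on antiviral effectors, GTPases that attack pathogens inside cells, and the machinery that presents peptides on MHC class I. The series asks whether the link between Trim24 and this interferon pathway runs through Rara.

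Array signal is linear and was scaled by the authors to a common level. It was analysed as log2(signal + 16), so differences in dim genes are understated, and 1 probe set stood for each of 18193 genes. Differences below are Trim24-/- Rara+/- minus Trim24-/- on that scale unless another pair is named. Genes with an adjusted p under 0.05 in limma (Benjamini-Hochberg over all genes) are termed called. Median signal per array was 12.6 to 16.1, and 49.9% to 54.4% of probe sets read under 16. Across 8178 genes with a log2 level above 6, arrays correlated at 0.952 to 0.987 within Trim24-/- and at 0.979 to 0.992 within Trim24-/- Rara+/-. Animals 54, 66 and 82 were the most alike, and animal 73 correlated with them at 0.979 to 0.980. Trim24-/- animal 6 correlated best with WT animal 90, at 0.979, against 0.952 to 0.958 with its own group. In these 2 animals the female-type cytochrome gene Cyp2b9 read 1.83 (animal 6) and 7.28 (animal 90), where the other 10 animals at 5 weeks read between 2409 and 4044. The median SD of a gene on the log2 scale was 0.185 in Trim24-/- and 0.144 in Trim24-/- Rara+/-. Hepatocyte markers such as Alb and Apoa1 were bright on every array, with summed signals of 10 markers between 73294 and 90612 in Trim24-/- and between 76543 and 88714 in Trim24-/- Rara+/-.

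The targeted genes did not separate the groups. Rara signal was 18.9, 15.7, 18.98 and 1.23 in Trim24-/- and 19.5, 31.6, 13.3 and 8.57 in Trim24-/- Rara+/- animals. The groups overlapped, and a lower level with 1 allele was not seen (difference 0.22 ± 0.31, SE, limma adjusted p = 0.860). That gene was near or under 16 on most arrays, where its level is poorly measured, and without Trim24-/- animal 37 the difference was -0.03. Trim24 signal was 347, 488, 305 and 314 in Trim24-/-, 461, 468, 473 and 399.8 in Trim24-/- Rara+/- and 459, 290.1, 191 and 327 in WT animals. It was thus no lower in the animals labelled as lacking the gene than in WT (0.23 ± 0.22 for Trim24-/- minus WT, limma adjusted p = 0.766, and 0.32 ± 0.22, adjusted p = 0.629, for Trim24-/- Rara+/- minus Trim24-/-). The 2 other Trim24 probe sets were no lower than WT either, with differences of 0.08 and, at signals mostly under 16, 0.51 for Trim24-/- minus WT. Where the probes lie relative to the disrupted sequence is not stated in the labels, and a probe beyond it cannot check a genotype, so neither loss was checked by these arrays. Xist, the RNA that silences an X chromosome in females, read 1279 to 2169 in Trim24-/- and 948 to 1066 in Trim24-/- Rara+/- animals, and the Y-linked Eif2s3y read at most 6.59 in both. All 8 animals thus had the female pattern. Xist did not overlap between the groups, and its difference of -0.74 ± 0.15 was not called (limma adjusted p = 0.0797). Its 2 other probe sets gave -0.35 and -0.29, the mean of all 3 gave -0.46 (adjusted p = 0.644), and it gained a call in 4 of 29 alternatives.

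In Trim24-/- Rara+/- livers 10 interferon-response genes were lower, and 2 genes of fatty acid metabolism were higher, than in Trim24-/- livers. In limma 26 of 18193 genes were called. Of these, 19 were lower in Trim24-/- Rara+/- (0.104% of genes) and 7 were higher (0.0385%), among them 13 and 4 with at least a 2-fold change. The groups of 4 arrays overlapped in none of the 26. Over all genes the groups did not overlap for 934 genes lower (5.13%) and 606 higher (3.33%) in Trim24-/- Rara+/-. An unadjusted p under 0.05 was reached by 1300 lower (7.15%) and 789 higher genes (4.34%), and the median difference of all genes was -0.01. A negative difference was found in 52.7% of all genes, and these shares are the background for the list counts below. The calls depended on single animals. None of the 26 remained called in limma without any one of Trim24-/- animal 8 and Trim24-/- Rara+/- animals 54, 66 and 82, where 1015 to 1212 genes lower and 612 to 712 higher kept an unadjusted p under 0.05. Counts of lower and higher calls were 3 and 2 without Trim24-/- animal 1, 32 and 12 without animal 6, 69 and 32 without animal 37, and 40 and 10 without Trim24-/- Rara+/- animal 73, while without WT animal 45 there were 13 and 3. With a pseudocount of 1 no gene was called, with 1125 lower and 734 higher genes at an unadjusted p under 0.05, and with one of 64 there were 36 and 19 calls. With the closely alike animals 54, 66 and 82 averaged as 1 replicate no gene was called, and 647 lower and 379 higher genes had an unadjusted p under 0.05. When only the 8 arrays were fitted 4 and 1 genes were called, and with all 22 arrays 81 and 20.

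**Figure D1:**
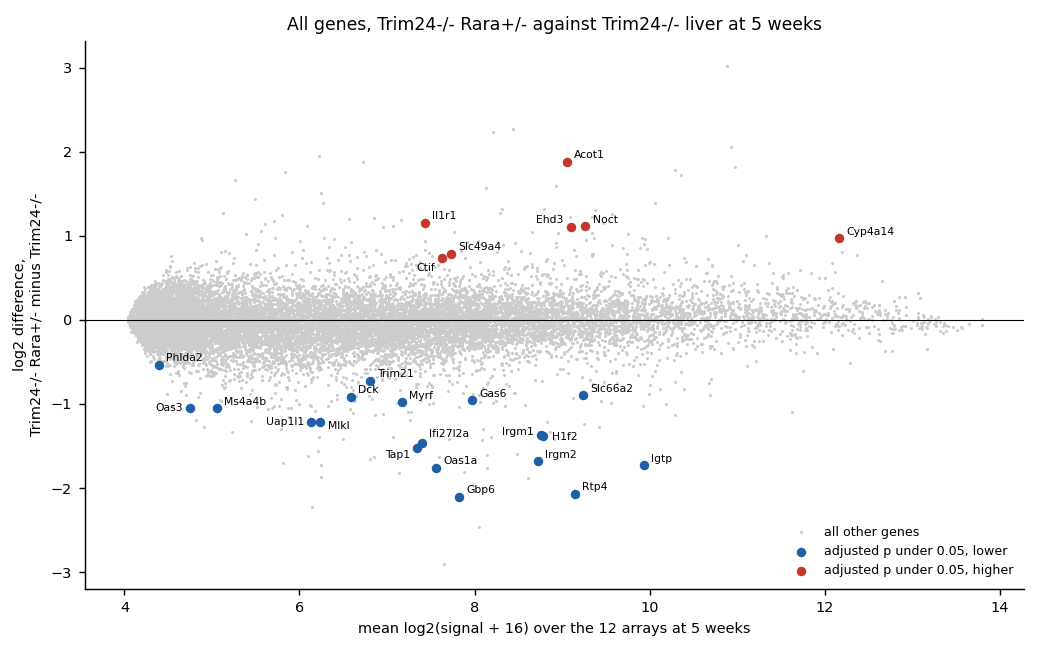
Difference between Trim24-/- Rara+/- and Trim24-/- livers at 5 weeks (vertical axis, log2 scale, n = 4 animals in each group) against the mean log2(signal + 16) over the 12 arrays at 5 weeks (horizontal axis). Each point is 1 of 18193 genes, and the 19 blue and 7 red named points passed an adjusted p of 0.05 in limma as lower and higher. The named lower genes reach down to -2.11 (Gbp6) and the named higher ones up to 1.88 (Acot1).

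Interferon-response genes made up 10 of the 19 lower calls and none of the 7 higher ones. Lists of interferon receptors, signalling components, sensors, effectors and class I presentation held 138 genes, of which 117 were measured. Of these 117, 10 (8.55%) were called lower, against 0.104% of all genes. A negative difference was found in 103, against 52.7% of all genes, and the median was -0.64, with values from -2.90 to 0.58. The groups did not overlap in 47 genes that were lower (40.2%) and in 1 that was higher (0.855%), against 5.13% and 3.33% of all genes. An unadjusted p under 0.05 was reached by 67 lower (57.3%) and 2 higher genes (1.71%), against 7.15% and 4.34% of all genes. The lists were assembled with earlier results of these data known, so their counts describe these arrays and are not independent evidence of a direction. The mean level of the 117 genes on the log2 scale was 8.14, 7.58, 7.86 and 7.59 in the Trim24-/- animals and 6.99, 6.999, 7.30 and 6.94 in the Trim24-/- Rara+/- animals. WT animals lay between 6.90 and 7.11. Animal 1 was the highest Trim24-/- animal for 75 of the 117 genes, and animal 73 the highest Trim24-/- Rara+/- animal for 78. The median over the 117 genes lay between -0.70 and -0.55 when any 1 animal was left out, whereas the number of called members ranged from 0 to 36.

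The GTPases that mark and break pathogen vacuoles had the largest share of calls among the lists. Of 12 measured guanylate-binding proteins, immunity-related GTPases and Mx proteins, 4 were called lower, all 12 had a negative difference, and the median was -1.40. Gbp6, a guanylate-binding protein, read 1098, 385, 699 and 473 in Trim24-/- and 116, 120.1, 188 and 108 in Trim24-/- Rara+/- animals. Every Trim24-/- animal was above every Trim24-/- Rara+/- animal, and animal 73 was the highest of the latter. The level was 4.30-fold higher in Trim24-/- (-2.11 ± 0.27, SE, limma adjusted p = 0.0226), and a second probe set gave -1.92. Igtp, an immunity-related GTPase that guards host membranes, read 2692, 1979.7, 2346 and 1299 against 578, 583, 634 and 586. The 4 Trim24-/- Rara+/- animals lay close together, and even the lowest Trim24-/- animal, 37, was far above them. Its difference was -1.73 ± 0.21 (limma adjusted p = 0.0193), and over 29 alternative settings it lay between -1.97 and -1.59 and lost its call in 6.

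Irgm1 and Irgm2, which keep the other immunity-related GTPases off host membranes, behaved alike. Irgm1 read 1144, 663, 838 and 519 in Trim24-/- and 264, 294, 336 and 251 in Trim24-/- Rara+/- animals (-1.36 ± 0.20, limma adjusted p = 0.0275). Irgm2 read 1301, 626, 1026 and 642 and 219.9, 225, 355 and 243 (-1.68 ± 0.27, adjusted p = 0.0383). In both, animals 1 and 8 were the highest of the Trim24-/- group and the groups did not touch. The other members missed the threshold. Gbp2 (-1.63, adjusted p = 0.0514), the antiviral GTPase Mx1 (-1.33, adjusted p = 0.0514), Gbp7 (-1.43, adjusted p = 0.0553) and Ifi47 (-1.39, adjusted p = 0.0568) did not overlap between the groups either. Gbp3 and Mx2 did overlap, with Gbp3 at 145 to 608 against 47.0 to 173.

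Promoters are shown for the 4 interferon-response genes with the smallest adjusted p that the promoter table holds (Oas3, Irgm1 and Tap1 share theirs with Trim21, and the unadjusted p broke the tie), because interferon-activated factors bind short elements close to the start of their targets. The table, from RefSeq on GRCm38.p6, gives 250 bases before and 50 after each gene's start, read 5′ to 3′ on the gene's strand. The Igtp window is chr11:58199306-58199605 (+), that of Oas3 chr5:120777610-120777909 (-), that of Irgm1 chr11:48871371-48871670 (-) and that of Tap1 chr17:34187306-34187605 (+). Capitals mark matches to the interferon-stimulated response element, searched as GAAA, 2 bases of any kind and GAAA, or to the gamma-activated site, searched as TTCNNNGAA. Both were searched on both strands, and adjoining matches may overlap.
Igtp: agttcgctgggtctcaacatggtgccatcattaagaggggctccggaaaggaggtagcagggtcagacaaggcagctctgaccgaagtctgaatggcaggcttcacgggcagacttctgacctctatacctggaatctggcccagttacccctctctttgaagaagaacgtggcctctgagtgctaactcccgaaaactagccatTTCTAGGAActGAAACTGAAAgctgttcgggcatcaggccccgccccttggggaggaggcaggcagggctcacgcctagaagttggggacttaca
Oas3: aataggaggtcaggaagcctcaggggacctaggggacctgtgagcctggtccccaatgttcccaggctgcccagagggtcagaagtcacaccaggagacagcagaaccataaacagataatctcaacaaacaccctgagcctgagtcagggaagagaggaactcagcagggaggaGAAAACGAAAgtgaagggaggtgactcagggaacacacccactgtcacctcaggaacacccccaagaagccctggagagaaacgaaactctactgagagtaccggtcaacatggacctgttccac
Irgm1: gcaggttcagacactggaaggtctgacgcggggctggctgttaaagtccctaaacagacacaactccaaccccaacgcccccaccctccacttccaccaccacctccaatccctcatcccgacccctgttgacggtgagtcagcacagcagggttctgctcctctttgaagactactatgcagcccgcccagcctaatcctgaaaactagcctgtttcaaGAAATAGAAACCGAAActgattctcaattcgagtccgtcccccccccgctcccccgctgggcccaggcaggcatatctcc
Tap1: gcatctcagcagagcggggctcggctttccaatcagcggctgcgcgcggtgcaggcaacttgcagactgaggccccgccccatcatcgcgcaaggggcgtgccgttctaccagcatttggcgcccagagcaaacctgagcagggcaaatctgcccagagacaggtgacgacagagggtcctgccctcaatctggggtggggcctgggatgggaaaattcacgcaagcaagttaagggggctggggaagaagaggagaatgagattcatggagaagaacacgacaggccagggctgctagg
In the Igtp window a gamma-activated site begins 45 bases and a response element 34 bases before the start. Irgm1 has a pair of overlapping response elements that begin 30 and 24 bases before the start, and Oas3 has 1 at 75 bases. These letters are not in the Tap1 window, which says nothing about the factors that may act on it.

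Response elements were counted in all promoters with the same search. Of the 19 genes called lower, 13 have a promoter in the table and 6 of those windows (46.2%) hold a response element, namely those of Igtp, Irgm1, Irgm2, Oas1a, Oas3 and Trim21. All 6 belong to the interferon lists. The windows of Dck, Gas6, H1f2, Mlkl, Ms4a4b and Phlda2, called lower outside those lists, hold none. Among the 117 interferon-response genes 37 of 111 windows (33.3%) hold it, against 1131 of 32851 windows (3.44%) in the whole table and 0 of 6 windows of genes called higher. The gamma-activated site is in 3 of the 13 windows (23.1%), those of Igtp, Irgm2 and Oas1a, and in 2726 of all windows (8.30%). For lower genes outside the interferon lists whose groups did not overlap, 33 of 880 windows (3.75%) hold the response element, close to the share in all windows. The direct repeat with 5 spacer bases that retinoic acid receptors prefer, searched in its perfect form, is in 3 of 32851 windows (0.00913%) and in none of a called gene. A search this strict misses elements with a changed base. A match describes letters and not binding.

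Oas1a and Oas3 were the called members among enzymes that sense viral RNA. Of 8 measured oligoadenylate synthetases, whose products activate RNase L, 2 were called lower, 7 had a negative difference and the median was -0.90. Oas1a read 785, 369.5, 453 and 285 in Trim24-/- and 97.3, 96.4, 224 and 92.1 in Trim24-/- Rara+/- animals. Animal 73 stood above the other 3 of its group and below the lowest Trim24-/- animal. The difference was -1.76 ± 0.30 (limma adjusted p = 0.0461), close to the threshold, and the call was lost in 19 of 29 alternatives. Oas3 read 40.4, 15.1, 29.8 and 26.0 against 3.02, 6.06, 6.85 and 3.40, all of the latter under 16, so its difference of -1.05 ± 0.15 (adjusted p = 0.0275) depends on the pseudocount and was -0.41 and -2.29 with pseudocounts of 64 and 1. Oasl1, an oligoadenylate synthetase-like antiviral protein, had -1.87 without a call (adjusted p = 0.0591).

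**Figure D2:**
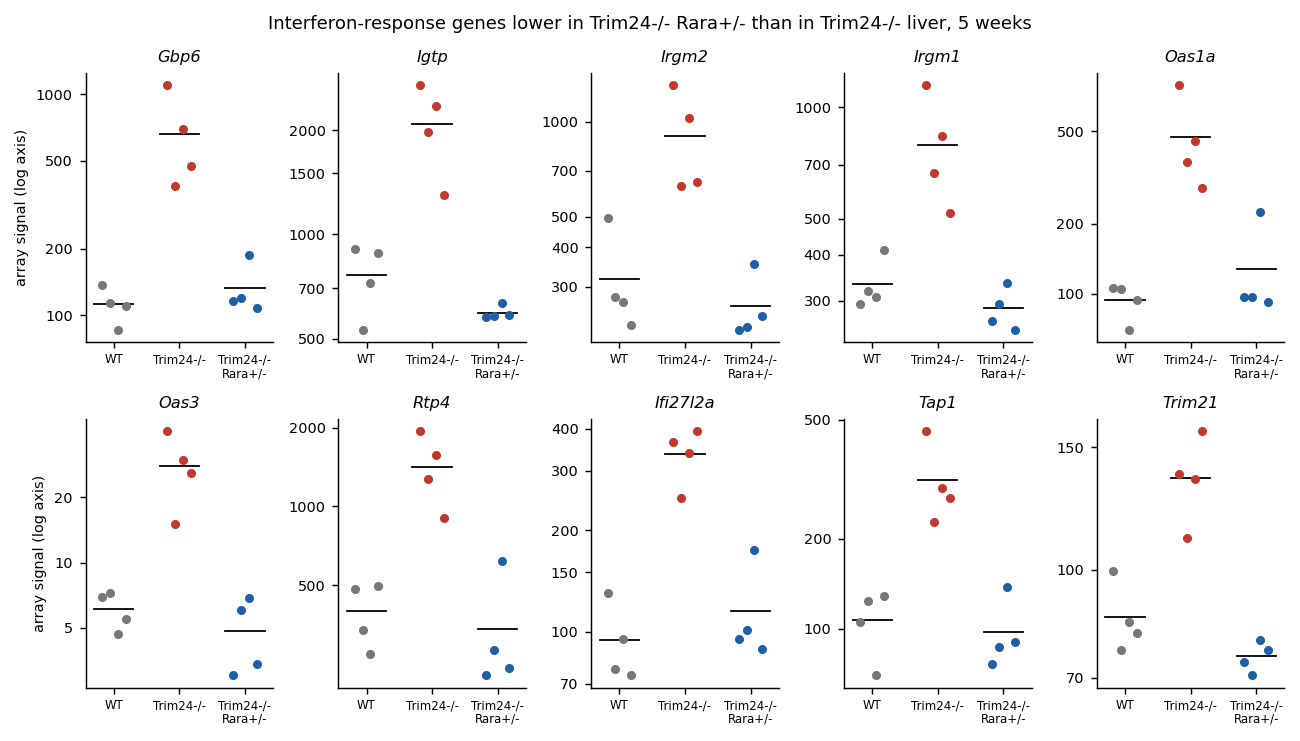
Array signal (vertical axes, log scale) of the 10 interferon-response genes called lower, in WT (grey), Trim24-/- (red) and Trim24-/- Rara+/- (blue) livers at 5 weeks. Each point is 1 animal, n = 4 in each group, and bars are group means. In all 10 genes every red point lies above every blue one, as for Igtp at 1299 to 2692 against 578 to 634.

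In the list of IFIT proteins and other antiviral effectors 3 of 27 measured genes were called lower, 26 had a negative difference, and the median was -0.96. Rtp4, a receptor-transporting chaperone induced by interferon, read 1937, 1273, 1567 and 901 in Trim24-/- and 226, 282, 615.9 and 240.4 in Trim24-/- Rara+/- animals. The groups did not overlap, although animal 73 read well above the other 3 of its group, and the difference was -2.07 ± 0.31 (limma adjusted p = 0.0275). Ifi27l2a, a small interferon-induced membrane protein, read 366, 249.8, 339 and 393.5 and 94.7, 101, 174 and 88.6 (-1.46 ± 0.21, adjusted p = 0.0275). Here animal 37, and not animal 1, was the highest Trim24-/- animal. Trim21, a cytosolic antibody receptor with ubiquitin ligase activity, read 137, 111, 135 and 158 and 73.8, 70.5, 79.3 and 76.6, a smaller change with little spread (-0.73 ± 0.11, adjusted p = 0.0275). For Trim21 a second probe set gave -0.26, and with all probe sets averaged the call was lost at -0.49.

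The largest differences among interferon-response genes had a wide spread between Trim24-/- animals and were not called. Ifit1, which binds foreign RNA ends, read 2317, 408, 1275 and 201 in Trim24-/- and 72.7, 64.4, 128 and 70.9 in Trim24-/- Rara+/- animals (-2.90 ± 0.56, limma adjusted p = 0.0732). Ifit3, its partner, read 3023, 339, 1332 and 308 against 99.9, 119, 238 and 112 (-2.46 ± 0.58, adjusted p = 0.102). In both genes animals 1 and 8 stood far above animals 6 and 37, and the groups still did not overlap. Rsad2, the antiviral enzyme viperin, did overlap, with animal 6 at 256 and animal 73 at 286 (-1.60, adjusted p = 0.146).

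Feedback and signalling genes had negative differences without calls. Usp18, the protease that removes ISG15 from proteins and dampens the interferon receptor, read 1751, 719, 1296 and 507 in Trim24-/- and 169, 206, 606 and 176 in Trim24-/- Rara+/- animals. Animal 73 was above Trim24-/- animal 37, so the groups overlapped, and the difference of -1.88 ± 0.41 was not called (limma adjusted p = 0.0876). Of 4 measured genes of ISG15 conjugation none was called, 3 had an unadjusted p under 0.05, and the median was -1.46. Irf7, which amplifies interferon production, read 1490.3, 457, 1294 and 464.3 and 199.5, 236, 413 and 213 (-1.60 ± 0.37, adjusted p = 0.102). Irf9, the DNA-binding partner of Stat2, read 342, 264, 309 and 237 and 126, 148, 215 and 129.7 (-0.85 ± 0.17, adjusted p = 0.0732). Neither gene overlapped between the groups. Irf1 was at -0.58 ± 0.15 (adjusted p = 0.133) without overlap, and Stat2 at -0.35 ± 0.17 (adjusted p = 0.465) with overlap. All 14 measured genes of the JAK-STAT and IRF list had a negative difference, none was called in limma, 3 had an unadjusted p under 0.05, and the median was -0.27. Isg15 has no probe set with a single gene symbol in the annotation and was not analysed here.

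The receptors themselves showed no such pattern. Ifnar1 and Ifnar2, the chains of the type I receptor, read 144 to 154 and 856 to 989 in Trim24-/- and 132 to 194 and 939 to 1104 in Trim24-/- Rara+/- animals. Their differences were 0.04 ± 0.12 and 0.15 ± 0.09 (limma adjusted p = 0.948 and 0.605), and both turned negative, to -0.05 and -0.16, when all probe sets of a gene were averaged. Ifngr1, a chain of the interferon gamma receptor, was at 0.05 ± 0.15 (adjusted p = 0.950), or -0.10 without Trim24-/- animal 1. The median over 11 measured interferons and receptors was 0.04, with no call and with 1 lower and 1 higher gene at an unadjusted p under 0.05. Interferon transcripts were at or near the floor of the arrays, as with Ifnb1 at 1.06 to 13.3 against 1.23 to 9.06 and Ifng at 0.417 to 3.25 against 0.515 to 6.20. No order can be read from such values.

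Sensors of nucleic acids and antiviral ADP-ribosyltransferases had mostly negative differences without a call in limma. Of 13 sensors 7 had an unadjusted p under 0.05, all lower, and the median was -0.66. Zbp1, a sensor of unusual nucleic acid helices, read 535, 147, 381 and 157 in Trim24-/- and 97.6, 69.9, 65.3 and 63.2 in Trim24-/- Rara+/- animals (-1.65, adjusted p = 0.0876). Ifih1, a sensor of long double-stranded RNA, read 449 to 1331 and 252 to 423 (-1.21, adjusted p = 0.0993). Both gave groups that did not overlap. All 7 genes of the list of PARP and ZAP proteins had an unadjusted p under 0.05 in the lower direction, with a median of -0.70, and Parp12 came nearest to a call (-1.03, adjusted p = 0.0591). Of 7 Schlafen genes, 2 had such a p in the lower direction and Slfn1 in the higher one, at signals of 0.564 to 5.02 and 7.76 to 16.8.

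Class I antigen presentation had 1 call among 14 measured genes, all 14 with negative differences and a median of -0.50. Tap1, a subunit of the transporter that carries peptides to MHC class I, read 457, 227, 296 and 272 in Trim24-/- and 76.0, 86.8, 137 and 90.1 in Trim24-/- Rara+/- animals. Its lowest Trim24-/- animal, 6, was well above the highest Trim24-/- Rara+/- animal, 73. The difference was -1.52 ± 0.23 (limma adjusted p = 0.0275), while its 3 other probe sets gave -0.33 to -0.01, in the same direction but small, and with all probe sets averaged the call was lost at -0.47. The immunoproteasome subunits Psmb9 (-0.88, adjusted p = 0.0732) and Psmb8 (-0.79, adjusted p = 0.116) were not called. Class II genes had no call either, with a median of -0.14 over 9.

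**Figure D3:**
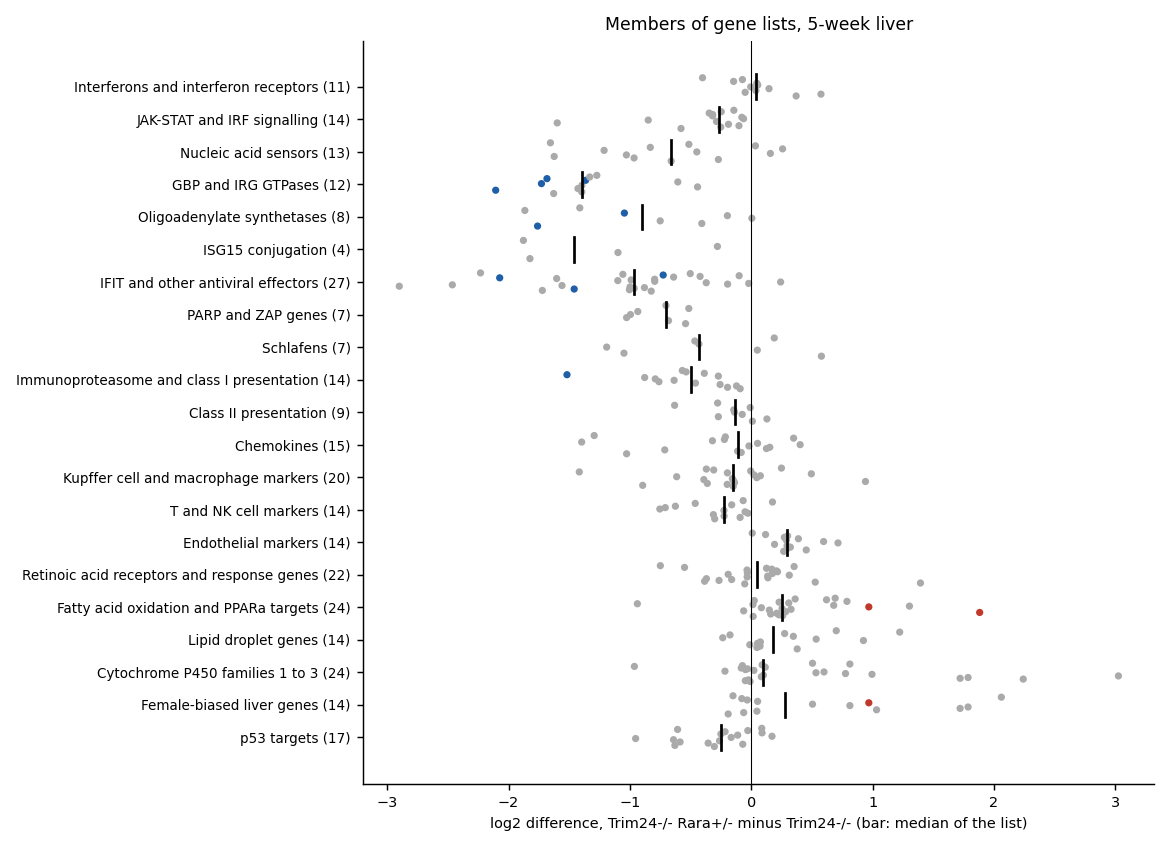
Differences between Trim24-/- Rara+/- and Trim24-/- livers (horizontal axis, log2 scale, n = 4 animals in each group) for the measured members of 21 of the gene lists, with the number of members in parentheses. Each point is a gene, black bars are list medians, and blue and red points were called lower and higher in limma. The lists of GTPases, oligoadenylate synthetases, ISG15 conjugation and antiviral effectors have medians between -1.46 and -0.90, whereas endothelial markers and genes of fatty acid oxidation have medians of 0.30 and 0.26.

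Set against WT, the interferon-response genes of Trim24-/- Rara+/- livers lay near the WT level. For the 10 called genes the difference of Trim24-/- from WT was 0.57 (Trim21) to 2.31 (Gbp6), and that of Trim24-/- Rara+/- from WT was -0.32 (Igtp) to 0.31 (Oas1a), none of the latter called in limma. These comparisons share arrays with the one that chose the genes, so they describe levels and add no independent support. Over all 26 called genes, 20 had Trim24-/- animals outside the WT range and Trim24-/- Rara+/- animals overlapping it. In 5 genes, Ehd3, H1f2, Il1r1, Slc49a4 and Slc66a2, it was the Trim24-/- Rara+/- group that stood apart from WT while Trim24-/- overlapped it. Noct stood apart in both groups, on opposite sides of WT.

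**Figure D4:**
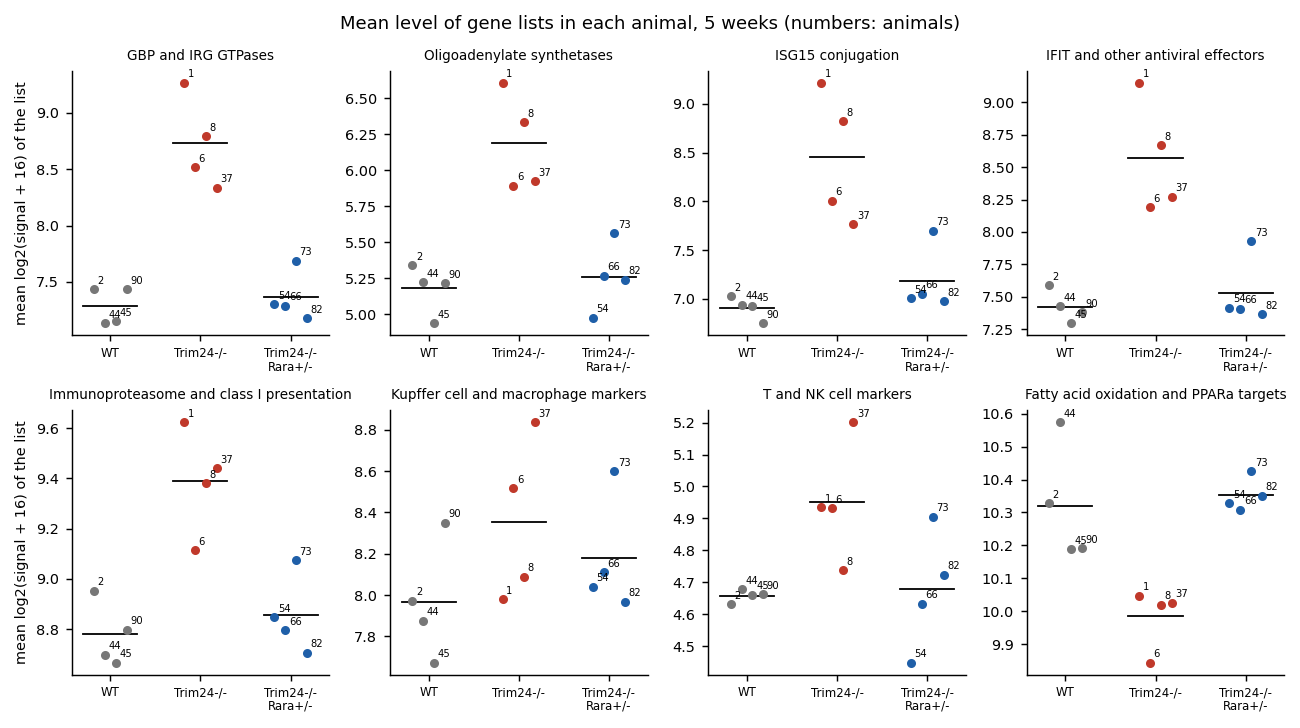
Mean log2(signal + 16) over the measured members of 8 gene lists (vertical axes) in each WT (grey), Trim24-/- (red) and Trim24-/- Rara+/- (blue) animal at 5 weeks. Points carry the animal's number, n = 4 in each group, and bars are group means. In all 8 lists animal 73 is the highest Trim24-/- Rara+/- animal, as for antiviral effectors at 7.93 against 7.37 to 7.42 in the other 3. For macrophage markers animal 73 is at 8.60, and Trim24-/- animal 37 is the highest of all animals at 8.84.

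Lower calls outside the interferon lists came from several processes. H1f2, a linker histone that compacts chromatin, read 642, 773, 593 and 579.6 in Trim24-/- and 271, 242, 198 and 240.3 in Trim24-/- Rara+/- animals, with WT at 430.3, 392.97, 518 and 696. Here the Trim24-/- Rara+/- animals were below both other groups. The difference was -1.38 ± 0.17 (limma adjusted p = 0.0193), its 2 other probe sets gave -1.29 and -0.01, and the call was lost in 7 of 29 alternatives. Gas6, the ligand of the TAM receptor kinases that mediate uptake of dying cells, read 413, 339.7, 365 and 383 against 173, 212, 189 and 168 (-0.96 ± 0.13, adjusted p = 0.0265). Both groups were tight, and the Trim24-/- Rara+/- animals lay within the WT range of 149 to 239. A second probe set of Gas6 gave -0.28.

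Mlkl, the executor of necroptotic cell death, read 157, 97.1, 101 and 85.2 in Trim24-/- and 29.4, 46.8, 46.1 and 28.9 in Trim24-/- Rara+/- animals (-1.22 ± 0.21, limma adjusted p = 0.0461). Myrf, a membrane-bound transcription factor known from myelin-forming cells, read 197, 214, 183 and 206 and 113, 104, 81.0 and 79.2 (-0.98 ± 0.17, adjusted p = 0.0461). Uap1l1, a relative of an enzyme of amino-sugar synthesis, read 79.4 to 144 and 26.5 to 51.2 (-1.21, adjusted p = 0.0461). For it a second probe set gave 0.05, and with probe sets averaged the call was lost at -0.58. Ms4a4b, a membrane protein of T cells, was dim at 22.9 to 49.0 and 6.35 to 12.4 (-1.05, adjusted p = 0.0461), and a second probe set gave 0.17. With probe sets averaged the call of Ms4a4b was lost at -0.44. The remaining 3 lower calls were outside the rule for named genes and are listed after their values were seen. They were Dck, the kinase that salvages deoxycytidine, at -0.92 (adjusted p = 0.0275), Slc66a2 at -0.90 (adjusted p = 0.0383) and the imprinted Phlda2 at -0.54 (adjusted p = 0.0461). Other probe sets gave -0.42 and -0.41 for Dck and -0.61 to -0.02 for Slc66a2. With all probe sets averaged these 2 genes lost their calls, at -0.58 and -0.46. Phlda2 was under 16 on all arrays of both groups.

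Fatty acid oxidation genes and PPARa targets formed the only other list with more than 1 call. Of 24 measured members 2 were called higher and 22 had a positive difference, where 52.7% of all genes had a negative one. In 13 (54.2%) the groups did not overlap in the higher direction, against 3.33% of all genes, and the median was 0.26. Acot1, an acyl-CoA thioesterase induced by PPARa, read 119.6, 291, 175 and 369 in Trim24-/- and 697, 839.6, 1052 and 852 in Trim24-/- Rara+/- animals. The highest Trim24-/- animal, 37, was well below the lowest Trim24-/- Rara+/- animal, 54. Its level was 3.69-fold higher in Trim24-/- Rara+/- (1.88 ± 0.29, limma adjusted p = 0.0275), and its call was lost in 11 of 29 alternatives. Cyp4a14, a fatty acid omega-hydroxylase and also a member of the female-biased list, read 3475, 2284, 3290.2 and 3195 and 5676, 6219.8, 6269.5 and 5589 (0.97 ± 0.13, adjusted p = 0.0226). Cyp4a14 lost its call in 9 of 29 alternatives. With all 22 arrays fitted neither gene was called (limma adjusted p = 0.109 for Acot1 and 0.514 for Cyp4a14). Animal 6 was the lowest of its group in Cyp4a14 and in the list as a whole, where its mean log2 level was 9.84 against 10.02 to 10.05 in the other 3 Trim24-/- animals and 10.31 to 10.42 in Trim24-/- Rara+/-.

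Other members pointed the same way without a call. Cyp4a31 was at 1.30 (adjusted p = 0.0732), the peroxisomal enzyme Ehhadh at 0.68 (adjusted p = 0.0797) and the peroxisome division factor Pex11a at 0.79 (adjusted p = 0.0994), all without overlap. Lipid droplet genes had a median of 0.18 over 14, with no call and 3 higher genes at an unadjusted p under 0.05 in limma. Srebf1, the transcription factor of lipid synthesis, read 1843, 1787, 1841 and 1455 in Trim24-/- and 908, 777, 586 and 889 in Trim24-/- Rara+/- animals (-1.13, adjusted p = 0.0993). Its list of cholesterol and fatty acid synthesis had no call and a median of 0.20 over 22.

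The other higher calls were single genes. Noct, a rhythmically expressed phosphatase of the circadian list, read 262, 468, 457 and 391 in Trim24-/- and 818, 826, 903 and 864 in Trim24-/- Rara+/- animals, with WT in between at 573 to 779. Its difference was 1.11 ± 0.16 (limma adjusted p = 0.0275), and it was the only call among 18 circadian genes, whose median was 0.19. Ehd3, an ATPase of endocytic recycling, read 357, 327, 414 and 475 and 965, 912, 794 and 778 (1.11 ± 0.17, adjusted p = 0.0275). Trim24-/- animals overlapped the WT range of 337 to 616.1, and the Trim24-/- Rara+/- animals were above it.

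Il1r1, the signalling receptor for interleukin-1, read 74.1, 76.5, 92.6 and 157 in Trim24-/- and 219, 256, 207 and 252 in Trim24-/- Rara+/- animals (1.15 ± 0.19, limma adjusted p = 0.0461). Animal 37 was the nearest to the other group, and a second probe set gave -0.09. With probe sets averaged the call of Il1r1 was lost at 0.53. Slc49a4, a lysosomal membrane transporter, read 124 to 188 and 240.3 to 293 (0.79, adjusted p = 0.0461). Its second probe set gave 0.10, and with probe sets averaged the call was lost at 0.44. Ctif, a factor of translation from newly exported mRNAs, read 132 to 139 and 210.0 to 264 (0.73, adjusted p = 0.0461). The Trim24-/- animals agreed closely in Ctif, and the higher group was split between animals 54 and 66 and animals 73 and 82.

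**Figure D5:**
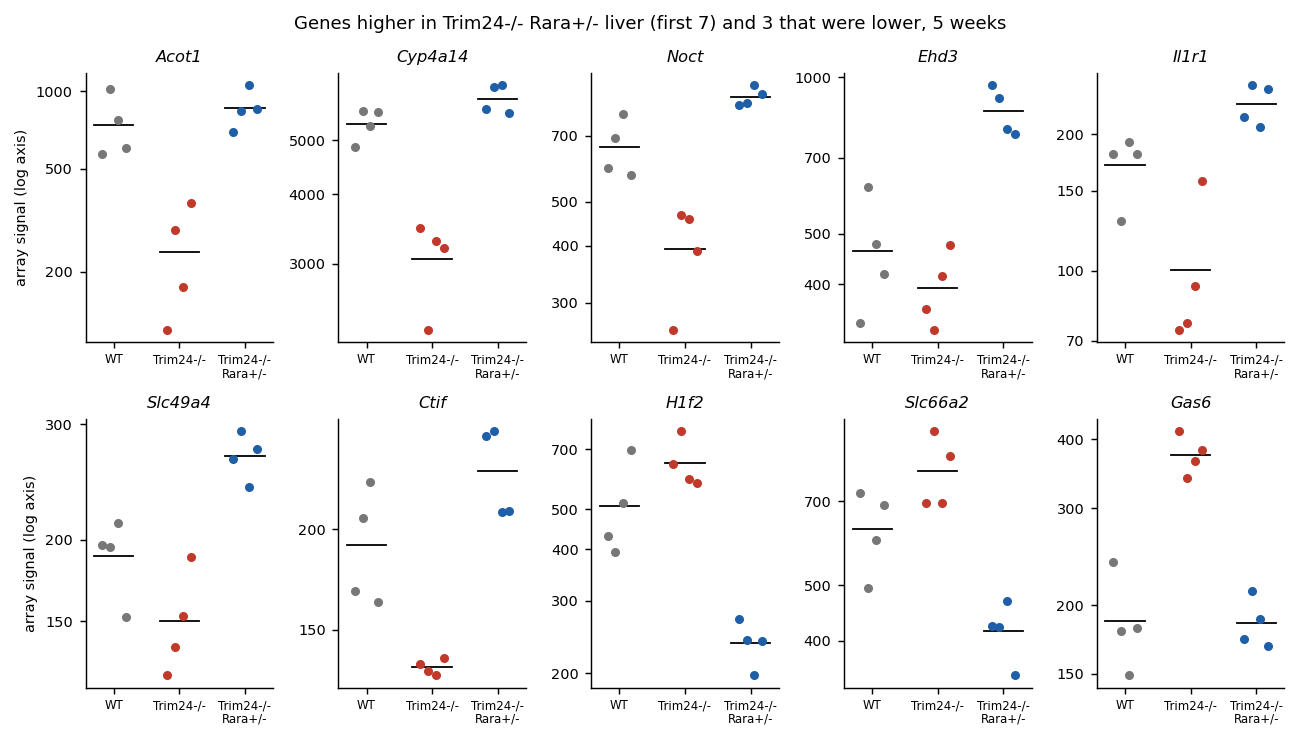
Array signal (vertical axes, log scale) of the 7 genes called higher and of 3 genes called lower outside the interferon lists, in WT (grey), Trim24-/- (red) and Trim24-/- Rara+/- (blue) livers at 5 weeks. Each point is 1 animal, n = 4 in each group, and bars are group means. Blue points of Ehd3 lie between 778 and 965, above every WT and Trim24-/- animal, and those of H1f2 between 198 and 271, below every one.

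Genes of the retinoid pathway were examined because Rara is the manipulated receptor. Of 22 measured retinoic acid receptors and response genes none was called in limma, the median was 0.05, and 4 lower and 2 higher genes had an unadjusted p under 0.05. Cyp26a1, the retinoic acid-degrading enzyme and a classic target of the receptor, read 22.5, 44.4, 27.6 and 10.4 in Trim24-/- and 79.2, 114, 105 and 68.8 in Trim24-/- Rara+/- animals. The groups did not overlap, and the difference of 1.39 ± 0.41 was not called (adjusted p = 0.193). Tgm2, a transglutaminase induced by retinoic acid, read 1129.9, 1544, 902 and 1060.3 and 721, 789, 601 and 589 (-0.75 ± 0.19, adjusted p = 0.142). Dhrs3, a retinaldehyde reductase, was at -0.38 (adjusted p = 0.189), also without overlap. These 3 targets differed in direction. Of 20 genes of retinoid storage, transport and oxidation none was called, 1 lower gene had an unadjusted p under 0.05, and the median was -0.02.

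Markers of other liver cells were set beside the interferon lists, since in whole tissue fewer cells of a type and less RNA per cell cannot be told apart. Of 20 Kupffer cell and macrophage markers none was called in limma, 3 lower and 1 higher had an unadjusted p under 0.05, and the median was -0.15. Their summed signal was 9162 to 16079 in Trim24-/-, 8613 to 13485 in Trim24-/- Rara+/- and 6908 to 12596 in WT, with Itgam under 16 on all 8 arrays. Mpeg1, a pore-forming protein of macrophages, had the largest of these differences, with 1364, 749, 909.6 and 943 in Trim24-/- and 268, 295, 748 and 257 in Trim24-/- Rara+/- animals (-1.42, adjusted p = 0.0834). Differences over the 20 markers ran from -1.42 to 0.94, with 14 negative and 6 positive. Animals 37 and 73 had the highest macrophage level of their groups.

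T and NK cell markers had 13 of 14 negative differences, where 52.7% of all genes had one. They had no call, 4 lower genes at an unadjusted p under 0.05 and a median of -0.22. Their summed signal was 157 to 356 in Trim24-/- and 88.9 to 219 in Trim24-/- Rara+/- animals, and Cd2, Cd4 and Ncr1 were under 16 on all 8 arrays. B cell, neutrophil and dendritic cell markers had medians of -0.15, -0.22 and -0.13 with no call. The summed signal of 9 B cell markers was 218 to 273 in Trim24-/-, 158 to 211 in Trim24-/- Rara+/- and 60.3 to 192 in WT animals. This sum was lower in Trim24-/- Rara+/- than in Trim24-/- without overlap, but none of the 9 markers separated the groups by itself. Their mean log2 level overlapped, at 5.11 to 5.28 in Trim24-/- and 4.94 to 5.14 in Trim24-/- Rara+/- animals. In the same order, the summed signal of 9 dendritic cell markers was 1372 to 2686, 862 to 1444 and 701 to 1065, with a narrow overlap. That of 8 neutrophil markers was 68.9 to 414, 64.6 to 277 and 85.8 to 261. Fcer2a among B cell, Cxcr2 among neutrophil and Ccr9, Cd209a and Xcr1 among dendritic cell markers were under 16 on all 8 arrays. Endothelial markers went the other way, with 14 of 14 positive differences, 5 at an unadjusted p under 0.05, a median of 0.30 and no call. Their summed signal was 2582 to 3921 in Trim24-/-, 3936 to 4403 in Trim24-/- Rara+/- and 3090 to 4110 in WT animals. Their mean log2 level was 7.30, 7.73, 7.18 and 7.78 in Trim24-/- and 7.80 to 7.85 in Trim24-/- Rara+/- animals. Trim24-/- animals 6 and 37 thus lay close to the other group, and animals 1 and 8 lay lower. Stellate cell and matrix genes (-0.13), bile duct markers (-0.15) and hepatocyte markers (-0.01) had no call. Chemokines that draw immune cells had no call among 15, with Ccl2 (-1.03, adjusted p = 0.0553, at most 40.4 in Trim24-/-) and the interferon-induced Cxcl10 (-1.40, adjusted p = 0.157) the most negative without overlap. The part of these cell types in the interferon result was not tested beyond the values given.

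The remaining lists held few or no calls. Female-biased liver genes had 1 call among 14, Cyp4a14, and a median of 0.28, and male-biased genes had none among 12. Cytochromes of families 1 to 3 had none among 24, although Cyp2b10, the marker of the xenobiotic receptor CAR, read 118, 77.3, 109 and 347 in Trim24-/- and 639, 706, 859 and 666 in Trim24-/- Rara+/- animals (2.24 ± 0.70, limma adjusted p = 0.215). WT animals spread over 40.6 to 822 for that gene. Lists of bile acids, conjugation, gluconeogenesis, zonation, p53 targets, cell cycle, acute phase, complement, stress, tumour markers and retroelement silencing had no call. Among p53 targets the median was -0.25 over 17, with Gadd45a at -0.95 (adjusted p = 0.175).

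On a hybrid background, alleles linked to a targeted locus can follow the genotype. Of the 100 measured genes on each side of Rara, 200 in all, none was called in limma, 17 (8.50%) had an unadjusted p under 0.05 and 6.00% did not overlap, against 11.5% and 8.46% of all genes. Around Trim24, where both groups carry the disrupted allele, none of 200 was called, 21 (10.5%) had an unadjusted p under 0.05 and 7.5% did not overlap. The 26 called genes lay on 14 chromosomes. Chromosome 11, which carries Rara and 1452 of the 18193 measured genes, holds 3 of them, Igtp, Irgm1 and Irgm2. All 3 lie outside the 100 genes on each side of Rara, but these cover only part of the chromosome. Linkage beyond them was not tested. Of the 1452 measured genes of that chromosome 11.2% had an unadjusted p under 0.05 and 8.33% did not overlap, close to the shares of all genes.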

How the data were processed

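Total RNA of frozen livers was column-purified, amplified in 2 rounds and hybridised as biotin-labelled probes, per the labels' protocols. The authors deposited linear intensity values of 45101 probe sets and 22 arrays. Every array had a mean of 100.001 once 2% of values were trimmed at each end, so values had been scaled before deposit, by software not given in the sources used here. From these, log2(signal + 16) was computed. Control probe sets (64) were left out. The platform annotation names 1 gene for 34958 probe sets, several for 932 and does not list 9211. Each of 18193 genes was represented by its probe set of highest mean signal across the 22 arrays. No 2 arrays were identical.

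The 12 arrays at 5 weeks were fitted with lmFit and eBayes (limma 3.58.1, R 4.3.3) without covariates, and Trim24-/- Rara+/- was contrasted with Trim24-/-. The number of arrays limits the precision. Named were Trim24, Rara, Xist, Eif2s3y, 10 interferon signalling genes, the 15 largest called changes each way and up to 5 called members per list. The 42 lists (594 of 671 genes measured), the members and the tests were chosen with earlier results of these data known. List members and genes not called are given as descriptions. The fit was tested on simulated data. Alternatives covered normalisation, pseudocount, probe sets, brightness, variance model and the arrays included.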

Additional observations from a re-analysis of the deposited data

Results flagged for a closer look

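Single animals were examined in 162 groups of 4, each a named gene or a list mean in Trim24-/- or Trim24-/- Rara+/- livers on the log2(signal + 16) scale. An animal was listed where its gap to the nearest other animal, divided by the range of the group, exceeded Dixon's critical value at the 95% level. Chance gives about 1 in 20 groups, and 19 of 162 were listed. The groups are not independent, since lists hold named genes and share members, so this count cannot be read as an excess over chance. The ratio follows each item.

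Trim24-/- Rara+/- animal 73 accounted for 12 of the 19. It was above the other 3 animals for Igtp (9.34 against 9.21 to 9.23, ratio 0.853), Oas1a (7.91 against 6.76 to 6.82, ratio 0.942) and Usp18 (9.28 against 7.53 to 7.79, ratio 0.853), and below them for Irf1 (7.75 against 8.08 to 8.13, ratio 0.862). Among list means it was above them for antiviral effectors (7.93, ratio 0.910), ISG15 conjugation (7.70, ratio 0.897) and all interferon-response genes (7.30, ratio 0.830). It was also the highest for neutrophil markers (5.43 against 4.53 to 4.61, ratio 0.912), class II presentation (7.42, ratio 0.864), gluconeogenesis and fasting response (9.33 against 8.75 to 8.84, ratio 0.849) and circadian genes (7.73, ratio 0.854), and the lowest for male-biased genes (8.07 against 8.51 to 8.57, ratio 0.866).

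Animal 82 of the same group was apart for Phlda2 (4.12 against 4.21, ratio 0.964), Trim24 (8.70 against 8.90 to 8.93, ratio 0.842), B cell markers (5.14, ratio 0.911) and lipid droplet genes (8.14, ratio 0.845). Among Trim24-/- animals, 37 was apart for Rara (4.11 against 4.99 to 5.13, ratio 0.860) and male-biased genes (7.73 against 8.64 to 8.72, ratio 0.919), and 6 for fatty acid oxidation (9.84 against 10.02 to 10.05, ratio 0.861).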

How the results depend on the processing

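Over 29 alternatives, 28 of them planned, the median of the 117 interferon-response genes stayed negative, between -0.81 with a pseudocount of 1 and -0.43 with every probe set tested on its own, and no called gene changed direction. Each difference is fixed by construction with a variance trend, only the 8 arrays, all 22 arrays or a WT animal left out. So it is with a 2-fold limit, with only brighter genes and with the neighbours of Rara and Trim24 left out. The same holds for called genes with every probe set tested on its own, where the same probe set was read. No change of direction was possible in these settings. Second probe sets of Il1r1, Uap1l1 and Ms4a4b gave -0.09, 0.05 and 0.17, opposite in sign to the called ones. No setting moved the median of all genes by over 0.1. Counts of calls were less steady, and none of the 26 genes kept its call under all 29. Given as lower, higher and interferon-response calls where all 3 moved, they were 0, 0 and 0 with a pseudocount of 1, 75, 31 and 30 among genes brighter than the median gene, 37, 15 and 21 with a variance trend, 224, 100 and 55 with array weights, 4, 1 and 1 with only the 8 arrays, 81, 20 and 42 with all 22, 0, 0 and 0 with animals 54, 66 and 82 averaged, and 3, 2 and 2 with Trim24-/- animals 1 and 8 averaged. They were 39, 12 and 19 without WT animal 90 and Trim24-/- animal 6, and 79, 33 and 40 without Trim24-/- animal 37 and Trim24-/- Rara+/- animal 73, the 1 setting added after the data were seen. Lower calls were 12 with quantile normalisation and with every probe set tested, lower and higher calls were 36 and 19 with a pseudocount of 64, and 4 higher calls changed at least 2-fold. With 1 animal left out, lower calls ranged from 0 to 69, higher calls from 0 to 32 and interferon-response calls from 0 to 36. Fewer genes tested or fewer samples enter some of these settings, and otherwise the cause was not tested. Differences near 0 changed sign: Eif2s3y to -0.038 (pseudocount 1), -0.048 (array weights) and -0.12 (without animals 37 and 73), with -0.076 to 0.11 over single animals left out, Ifnar1 to -0.047 and Ifnar2 to -0.16 (mean of probe sets), Ifnar1 to -0.025 (averaged animals 54, 66 and 82), with -0.068 to 0.10 over animals left out, Ifngr1 to -0.018 (averaged animals 1 and 8), with -0.10 to 0.15, and Rara with -0.027 to 0.36. No paired analysis was possible because the groups share no replicate numbers. Between 49.9% and 54.4% of probe sets read under 16, which limits what dim genes such as Rara, Oas3 and Phlda2 can show.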

Other observations

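Of 18193 genes, 10 spread over more than 4 log2 units within the Trim24-/- or the Trim24-/- Rara+/- group. They were picked after their values were seen, so p-values support nothing here. In 8 of the 10 the groups overlapped, and Nlrp12 and Xaf1 did not overlap between the groups. Cyp2c37, a cytochrome of the arachidonic acid epoxygenase family, read 141, 137, 125.1 and 6923 in Trim24-/- and 6561, 6098, 356 and 6903 in Trim24-/- Rara+/- animals. Animals 1, 6, 8 and 73 were thus low and the other 4, like WT at 4981 to 6237, were high, so that the mean difference of 3.03 ± 1.19 (SE, limma adjusted p = 0.340) describes neither group. Its relative Cyp2c50 had the same split at a smaller size, with 2873, 3134, 2963 and 5638 and 6914, 6712, 3735 and 7533. Cyp2c39 was low in animal 37 alone, at 4369, 3214, 4436 and 135 in Trim24-/- animals, and so was the class I gene H2-Bl, at 511, 684, 439 and 19.4.

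Another set was low in Trim24-/- animal 6 and WT animal 90 together. Cyp2b13 read 4115, 8.63, 3278 and 3342 in Trim24-/- and 2614, 2891, 1197 and 2.22 in WT animals, and the ribonuclease gene Ang 9629, 389, 8639.5 and 7364 and 6340.5, 9005, 5796 and 269.6. The inflammasome-related gene Nlrp12 read 429, 13.8, 354 and 537 and 499, 364, 212 and 1.75. All 4 Trim24-/- Rara+/- animals were high for these genes, at 1032 to 1174 for Nlrp12, above every other animal at 5 weeks. Xaf1, an interferon-induced pro-apoptotic gene, read 785, 44.2, 26.6 and 220.0 in Trim24-/- animals and 20.6, 14.4, 9.80 and 18.7 in Trim24-/- Rara+/- animals, with the highest values in animals 1 and 37. Obp2a, an odorant-binding protein, read 465.6, 5285, 686 and 257 and 507, 596, 1488 and 399.7 and was highest in animal 6.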
